A study of Mus musculus with 5 samples.

Results

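Genes of the p53 pathway and of apoptosis were examined in mouse embryonic stem cells (ESCs) and in the ESC-like cells that were recovered from teratomas. The list named 37 genes. A gene was taken up when a probe set of the array carried its symbol and no other, and the brightest such probe set, by its mean over the 5 arrays, stood for the gene. By this rule 34 of the 37 genes were measured, among 19938 genes and 35556 probe sets on the array, and each of the 34 had a single probe set. The remaining 3, Trp53, Cdkn1a and Bax, had no probe set with their symbol alone and were not analysed here. Cells of 4 conditions were compared on the Affymetrix Mouse Gene 1.0 ST array. The first came from co-injection, in which B6CBAF1 ESCs and B6D2F1 fetal fibroblasts were injected together under the skin of B6D2F1 mice (n = 2, labelled batch 1 and batch 2). The second came from heterologous injection of the same ESCs alone into B6D2F1 mice, the third from homologous injection of the ESCs alone into B6CBAF1 mice, and the last were the parental B6CBAF1 ESCs before injection (1 array each). All ESC-like cells were thus regrown in culture from a teratoma, and those of the heterologous condition go back to 1 teratoma. Parental and ESC-like cells were all kept on ICR fetal fibroblasts that had been inactivated with mitomycin C, a DNA-crosslinking drug, and the methods give more leukemia inhibitory factor for the cells from teratomas than for parental ESCs.

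The transcription factor p53 is stabilized after DNA damage and other stress, when the ubiquitin ligase MDM2 and its partner MDM4 no longer hold it down, and it then activates genes that stop the cell cycle, repair DNA or start apoptosis. In the mitochondrial branch of apoptosis, BH3-only proteins such as PUMA, NOXA, BIM and BID counter the protective proteins BCL2, BCL-XL and MCL1, so that BAX and BAK open the outer mitochondrial membrane and APAF1 activates caspase-9. In the other branch, death receptors at the cell surface activate caspase-8. Pluripotent stem cells are known to be sensitive to DNA damage and to enter apoptosis readily.

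The values are log2 expression values after robust multi-array average (RMA) normalization. A difference of 1 on this scale is 2-fold, and a gene was counted when it differed by more than 2-fold, the fold rule of the study. With 1 array in each condition but co-injection there is no replicate check for differences between conditions, and precision is limited by how few arrays there are. The labels do not say whether the co-injection arrays came from separate teratomas, so their spread may be technical. Between these arrays the 34 genes differed by a median of 0.056 in absolute value and by at most 0.19, in Mdm4. Each SD given with n = 2 is that of the co-injection values alone, also where it stands beside a difference. The spread of the single array on the other side is unknown, so this SD is not the precision of the difference. The labelled cell type was checked against 12 markers of pluripotent stem cells, which averaged 11.70 and 11.74 in the co-injection arrays, 11.45 in the heterologous array, 11.69 in the homologous array and 11.95 in parental ESCs, and all 12 were above the median of all values. In the heterologous array 10 of the 12 were below parental ESCs, and Zfp42, Esrrb and Fgf4 were lower by over 2-fold. These 3 are 25% of the markers, beside 1.63% of all probe sets and 2.61% of the genes above that median. In the co-injection mean and in the homologous array 8 of the 12 were below parental ESCs, and 0 passed 2-fold. The 25 fibroblast markers averaged 7.97 and 7.96 in the co-injection arrays, 9.96 in the heterologous array, 8.74 in the homologous array and 8.27 in parental ESCs. By its fibroblast markers, too, the heterologous array stood apart. Of these markers 16 exceeded parental ESCs in this array by over 2-fold, and 20 of the 25 lay above the median of all values. The 8 markers of contractile cells averaged 8.54 and 8.48 in the co-injection arrays, 10.02 in the heterologous array, 8.99 in the homologous array and 8.55 in parental ESCs. Of 11 macrophage markers 1, and of 5 T cell markers 1, was above that median. In bulk samples such as these, fewer cells of a type and less RNA per cell cannot be told apart.

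Relative to parental ESCs, the clearest differences of these genes were in the heterologous array, where Casp8, Bcl2, Plk2 and Polk were higher and Sesn1 was lower by over 2-fold. These 5 of 34 genes are 14.7%, beside 4.85% of all probe sets and 7.7% of the 11600 genes above the median of all values, called brighter genes here. Of all probe sets 3.22% were higher and 1.63% lower by that much, and of the brighter genes 5.09% and 2.61%. A further 9 of the 34 were higher by 0.5 to 1 and 2 were lower by 0.5 to 1, and 18 lay within 0.5 of parental ESCs. In the co-injection mean 0 of 34 were past 2-fold (2.08% of all probe sets and 2.84% of the brighter genes), and 28 lay within 0.5. For the homologous array these counts were also 0 and 28, beside 2.96% of all probe sets and 4.16% of the brighter genes past 2-fold. Bands short of 2-fold were counted for the 34 genes only. The counts in them therefore cannot be set against all probe sets or the brighter genes. The median difference of the 34 genes was 0.17 in the co-injection mean, 0.19 in the heterologous array and 0.16 in the homologous array, beside 0.0047, −0.032 and −0.0012 over the brighter genes. Of the 34 differences, 24 were above 0 in the co-injection mean, 20 in the heterologous array and 22 in the homologous array, or 70.6%, 58.8% and 64.7%, where the brighter genes had 51.0%, 43.7% and 47.0%. Over all probe sets, in the same order, these shares were 58.7%, 38.8% and 42.5%, and the median differences were 0.036, −0.036 and −0.0050. The 3 comparisons share the single parental array, so an unusual value there moves all of them.

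**Figure D1:**
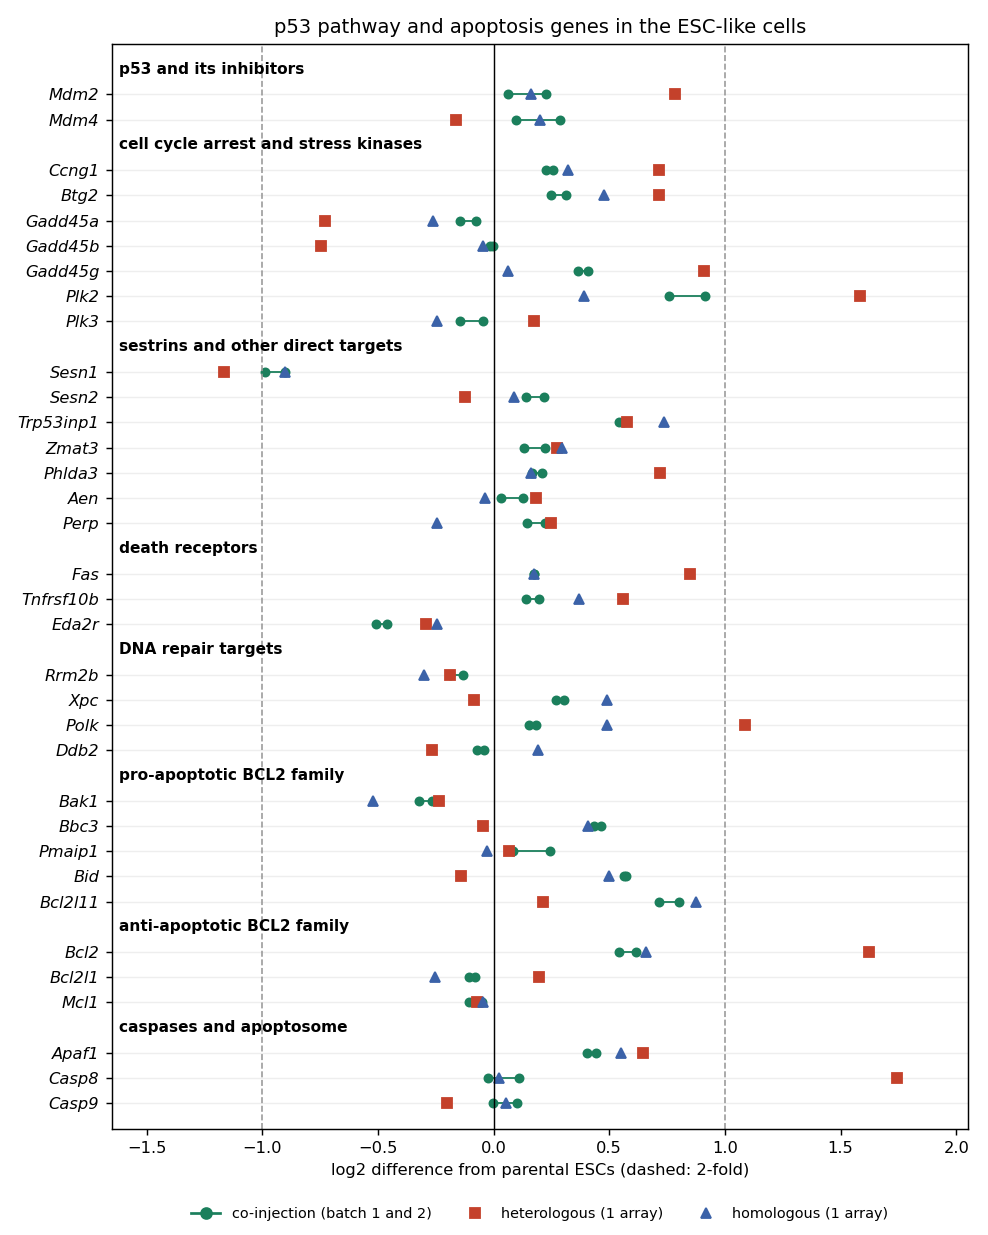
Difference of each measured gene from parental ESCs on the log2 scale (horizontal axis), by role (vertical axis), with batch 1 and batch 2 of the co-injection as joined circles, the heterologous array as squares and the homologous array as triangles. The squares of Casp8, Bcl2, Plk2 and Polk lie right of the dashed 2-fold line and that of Sesn1 left of the other, while no triangle crosses a line.

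Of the inhibitors of p53, Mdm2, itself a p53 target, was highest in the heterologous array. Its value was 10.57 and 10.41 in the co-injection arrays, 11.13 in the heterologous array, 10.51 in the homologous array and 10.35 in parental ESCs. The heterologous value lay above the other 4, and its difference from parental ESCs was 0.78, or 1.72-fold, against 0.14 ± 0.11 (SD, n = 2) for the co-injection arrays and 0.16 for the homologous array. Mdm4 differed from parental ESCs by 0.19 ± 0.13 in the co-injection arrays (SD, n = 2), −0.16 in the heterologous array and 0.20 in the homologous array.

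Among the genes of cell cycle arrest and stress kinases Plk2 had the largest difference. It encodes a polo-like kinase of the stress response. Its value was 9.12 and 8.96 in the co-injection arrays, 9.78 in the heterologous array, 8.59 in the homologous array and 8.20 in parental ESCs. All ESC-like arrays were above parental ESCs, the heterologous array by 1.58 (just under 3-fold), the co-injection arrays by 0.84 ± 0.11 (SD, n = 2) and the homologous array by 0.39. The related kinase gene Plk3 differed from parental ESCs by −0.095 ± 0.071 in the co-injection arrays (SD, n = 2), 0.17 in the heterologous array and −0.24 in the homologous array.

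Ccng1, which encodes cyclin G1, and Btg2, which encodes an antiproliferative factor, showed like differences in the heterologous array. Ccng1 read 12.18 and 12.15 in the co-injection arrays, 12.64 in the heterologous array, 12.25 in the homologous array and 11.92 in parental ESCs. Btg2 read 9.60 and 9.67 in the co-injection arrays, 10.07 in the heterologous array, 9.83 in the homologous array and 9.35 in parental ESCs. For both genes the heterologous value was the highest of the 5 and parental ESCs the lowest, with a difference of 0.71 for Ccng1 and 0.71 for Btg2, short of 2-fold. The Gadd45 genes, whose products are stress sensors that bind cell cycle and repair proteins, did not go one way. In the heterologous array Gadd45g was higher than in parental ESCs by 0.91, the gene nearest to 2-fold without passing it, while Gadd45a and Gadd45b had differences of −0.73 and −0.75. In the co-injection mean Gadd45g had a difference of 0.39, Gadd45a of −0.11 and Gadd45b of −0.0088, and in the homologous array the differences were 0.064, −0.26 and −0.047.

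p53 binds a response element made of 2 decamers of 10 bases, and RefSeq promoter windows (250 bases before to 50 after a gene start, GRCm38.p6) were searched for it to show what such an element looks like in genes of differing direction. The known consensus was used with at most 13 bases between the decamers and at most 2 mismatches in all, the invariant C and G of each decamer being required. It reads the same on both strands. An element was found in 4.09% of 32851 windows, and in 3 of the 35 windows of the 26 measured genes that have any. These 3 belong to Ccng1, Gadd45a and Sesn1, and are shown with the decamers in capitals and the flanks of 10 bases and the spacer in lower case:
Ccng1, chr11:40755452-40755491 (- strand): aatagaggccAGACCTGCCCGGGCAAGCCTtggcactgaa
Gadd45a, chr6:67037428-67037473 (- strand): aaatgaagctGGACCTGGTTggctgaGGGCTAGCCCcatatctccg
Sesn1, chr10:41887243-41887285 (+ strand): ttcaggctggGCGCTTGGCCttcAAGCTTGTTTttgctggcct
The element of Ccng1 has 1 mismatch and no spacer, that of Gadd45a has 2 mismatches and a spacer of 6 bases, and that of Sesn1, in the window of a second start within the gene, has 2 mismatches and a spacer of 3 bases. In the heterologous array these genes differed from parental ESCs by 0.71, −0.73 and −1.17, so the genes with a match in this window included both directions. Binding was not measured, a match is only a description of the letters, and windows without a match say nothing about elements elsewhere in a gene.

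Among the other direct targets Sesn1 stood out. It encodes sestrin 1, which limits oxidative stress and TOR signalling, and was the only gene of the 34 below parental ESCs by over 2-fold, in the heterologous array. Its value was 9.04 and 9.12 in the co-injection arrays, 8.86 in the heterologous array, 9.12 in the homologous array and 10.02 in parental ESCs. Each ESC-like array was lower than parental ESCs, with a difference of −1.17 in the heterologous array (2.25-fold lower), −0.94 ± 0.06 in the co-injection arrays (SD, n = 2) and −0.90 in the homologous array. The deposited values of co-injection batch 2 and the homologous array were identical. The related Sesn2 was not low, with differences between −0.13 in the heterologous array and 0.18 in the co-injection mean. Trp53inp1, whose product promotes p53-dependent death and autophagy, was higher in each ESC-like array, by 0.55 ± 0.013 in the co-injection arrays (SD, n = 2), 0.58 in the heterologous array and 0.74 in the homologous array. Its value was 11.15 and 11.13 in the co-injection arrays, 11.17 in the heterologous array, 11.33 in the homologous array and 10.59 in parental ESCs. Phlda3, which encodes an inhibitor of AKT, was higher by 0.72 in the heterologous array, against 0.19 ± 0.032 (SD, n = 2) and 0.16 in the co-injection and homologous arrays. Zmat3, Aen and Perp, which encode an RNA-binding protein, a nuclease and a membrane protein of desmosomes, were within 0.5 of parental ESCs in every array, and in the heterologous array their differences were 0.27, 0.18 and 0.25.

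**Figure D2:**
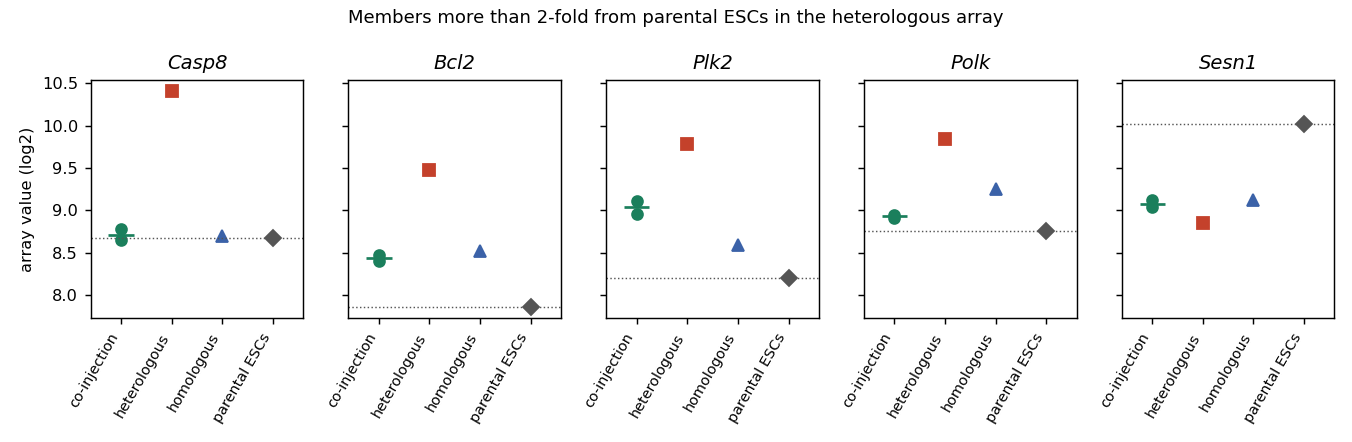
Array values (log2, vertical axis) of the 5 genes that were more than 2-fold from parental ESCs in the heterologous array, in co-injection (circles, with the mean as a line), heterologous, homologous and parental arrays (horizontal axis). Casp8 is high in the heterologous array alone, at 10.42, while Sesn1 is lower than parental ESCs in each ESC-like array.

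The death receptors Fas and Tnfrsf10b, the mouse TRAIL receptor, were both highest in the heterologous array. Fas read 6.01 and 6.01 in the co-injection arrays, 6.68 in the heterologous array, 6.01 in the homologous array and 5.84 in parental ESCs. It was the only measured gene of the list below the median of all values (7.49), so its differences rest on dim signal, and the deposited values of the homologous and both co-injection arrays were identical. Tnfrsf10b differed from parental ESCs by 0.17 ± 0.039 in the co-injection arrays (SD, n = 2), 0.56 in the heterologous array and 0.37 in the homologous array. Eda2r, the X-linked receptor of ectodysplasin A2, had differences of −0.48 ± 0.033 (SD, n = 2), −0.29 and −0.25 in the co-injection, heterologous and homologous arrays. The 359 brighter X-linked genes had median differences of −0.50, −0.47 and −0.44 in the same arrays. With these medians subtracted, the differences of Eda2r turned to 0.015, 0.18 and 0.20.

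Of the targets in DNA repair, Polk, which encodes a polymerase that copies past damaged bases, passed 2-fold in the heterologous array. Its value was 8.91 and 8.95 in the co-injection arrays, 9.85 in the heterologous array, 9.25 in the homologous array and 8.76 in parental ESCs. The heterologous value was the highest, 1.09 above parental ESCs (2.12-fold), followed by the homologous value with 0.49, and the co-injection arrays were at 0.17 ± 0.023 (SD, n = 2). Xpc and Ddb2, which recognize damage in nucleotide excision repair, had their highest values in the homologous array, with differences of 0.49 and 0.19, against −0.086 and −0.27 in the heterologous array. Rrm2b, a ribonucleotide reductase subunit, differed by −0.16 ± 0.039 in the co-injection arrays (SD, n = 2), −0.19 in the heterologous array and −0.30 in the homologous array.

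Within the BCL2 family, the protective gene Bcl2 and the BH3-only genes had unlike orders of the arrays. Bcl2 read 8.40 and 8.47 in the co-injection arrays, 9.48 in the heterologous array, 8.52 in the homologous array and 7.86 in parental ESCs. The heterologous array was highest, 1.62 above parental ESCs (3.08-fold), and the co-injection and homologous arrays were above parental ESCs by 0.58 ± 0.052 (SD, n = 2) and 0.66. Bcl2l1, the gene of BCL-XL, read 8.82 and 8.79 in the co-injection arrays, 9.10 in the heterologous array, 8.65 in the homologous array and 8.90 in parental ESCs. Mcl1 read 11.23 and 11.18 in the co-injection arrays, 11.21 in the heterologous array, 11.24 in the homologous array and 11.28 in parental ESCs. These other protective genes differed from parental ESCs by at most 0.25 in absolute value, in Bcl2l1 of the homologous array.

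Bcl2l11, the gene of BIM, read 9.98 and 9.90 in the co-injection arrays, 9.40 in the heterologous array, 10.05 in the homologous array and 9.18 in parental ESCs. Bid read 10.22 and 10.21 in the co-injection arrays, 9.51 in the heterologous array, 10.15 in the homologous array and 9.65 in parental ESCs, and Bbc3, the gene of PUMA, read 8.26 and 8.23 in the co-injection arrays, 7.75 in the heterologous array, 8.20 in the homologous array and 7.79 in parental ESCs. For these 3 genes the co-injection and homologous arrays lay together above both the heterologous array and parental ESCs. Their differences from parental ESCs in the homologous array were 0.87, 0.50 and 0.41, and in the heterologous array 0.21, −0.14 and −0.045. The co-injection mean exceeded the heterologous array by 0.54 ± 0.06 for Bcl2l11, 0.71 ± 0.0066 for Bid and 0.49 ± 0.021 for Bbc3 (SD, n = 2). None of these reached 2-fold. Pmaip1, the gene of NOXA, read 8.80 and 8.64 in the co-injection arrays, 8.62 in the heterologous array, 8.52 in the homologous array and 8.55 in parental ESCs, so that batch 1 was highest and the other 4 arrays were close to each other. Bak1, a pore-forming effector, was lower than in parental ESCs, with differences of −0.29 ± 0.04 (SD, n = 2), −0.23 and −0.52 in the co-injection, heterologous and homologous arrays.

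**Figure D3:**
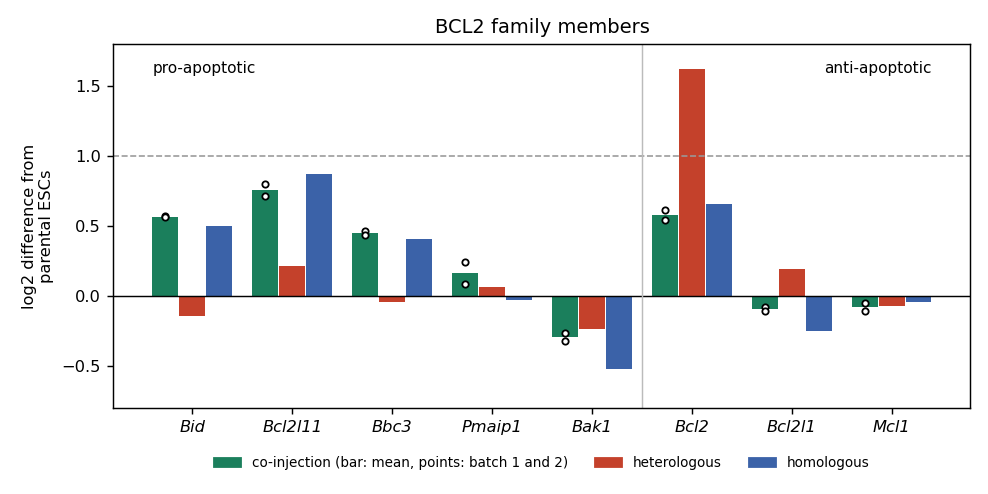
Difference from parental ESCs (log2, vertical axis) of the measured BCL2 family genes (horizontal axis). Bars are the co-injection mean (points show batch 1 and batch 2), the heterologous array and the homologous array. The bars of Bid, Bcl2l11 and Bbc3 are taller for co-injection and homologous than for heterologous, and that of Bcl2 is tallest for heterologous, at 1.62.

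Casp8, the initiator caspase of the death receptors, had the largest difference of the 34 genes. It read 8.65 and 8.78 in the co-injection arrays, 10.42 in the heterologous array, 8.69 in the homologous array and 8.67 in parental ESCs. The heterologous value was 1.75 above parental ESCs (3.35-fold), while the co-injection arrays, at 0.041 ± 0.095 (SD, n = 2), and the homologous array, at 0.024, were within the gap of the co-injection pair of parental ESCs. Casp9, the initiator caspase of the mitochondrial branch, showed no such gap, with 8.58 in the heterologous array against 8.78 in parental ESCs. Apaf1, the scaffold that activates caspase-9, was higher in each ESC-like array, by 0.42 ± 0.028 in the co-injection arrays (SD, n = 2), 0.64 in the heterologous array and 0.55 in the homologous array.

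The brighter genes around the 5 that passed 2-fold had median differences between −0.23 and 0.094, although single neighbours passed 2-fold. The 20 nearest brighter genes of Casp8 on chromosome 1 (10 on each side in the GRCm38.p6 gene order) had a median difference of 0.094 in the heterologous array, and 0 of them passed 2-fold. Around Bcl2, Plk2, Polk and Sesn1, 2, 1, 1 and 3 of 20 passed it in either direction, beside 7.7% of all brighter genes. The highest were Pam near Bcl2 (1.91), Zswim6 near Plk2 (1.24), F2r near Polk (1.65) and Cd24a near Sesn1 (1.93). The lowest were Tfcp2l1 near Bcl2 (−1.64), Plpp1 near Plk2 (−0.78), Lncenc1 near Polk (−0.50) and Fig4 near Sesn1 (−1.14). The medians were −0.0048 around Bcl2, also on chromosome 1, −0.11 around Plk2 and −0.06 around Polk, both on chromosome 13, and −0.23 around Sesn1 on chromosome 10. Genes that were not brighter were not counted as neighbours. Cflar, which like Casp8 is on chromosome 1, was left out for this reason. Its probe sets gave differences of 1.67, 1.01 and 0.33 in the heterologous array. Fibroblast markers were also highest in the heterologous array, with a median difference from parental ESCs of −0.13 in the co-injection mean, 1.70 in the heterologous array and 0.39 in the homologous array, and their part in the values of Casp8, Bcl2, Plk2, Polk, Mdm2 or Fas was not tested.

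Set directly against each other, the conditions of the ESC-like cells differed by over 2-fold in at most 2 of these genes. The heterologous and the homologous array differ in the recipient strain and in the teratoma of origin. Between them Casp8 (difference 1.72) and Plk2 (1.19) passed 2-fold, both higher in the heterologous array. These 2 of 34 (5.88%) stand beside 2.64% of all probe sets and 3.91% of the brighter genes past 2-fold, and 1.98% and 2.89% that were higher. Bcl2, at 0.96, came next. The genes with the lowest differences were Gadd45b (−0.70), Bcl2l11 (−0.66), Bid (−0.64) and Xpc (−0.58). Co-injection was also set against heterologous injection of ESCs alone, in the same recipient strain. These differ in the added fibroblasts and in the teratoma of origin, which cannot be told apart with 1 heterologous array. The comparison gave 2 of 34 genes (5.88%) past 2-fold, both lower in the co-injection mean. Of all probe sets 3.13%, and of the brighter genes 4.26%, differed by that much, and 2.75% and 3.67% were lower. These were Casp8 at −1.70 ± 0.095 and Bcl2 at −1.04 ± 0.052 (SD, n = 2). Bcl2 lay close to the threshold, and passed it with batch 1 or batch 2 alone. Higher in the co-injection mean were Gadd45b (0.74), Bid (0.71), Gadd45a (0.62) and Bcl2l11 (0.54), and lower were Polk (−0.92), Plk2 (−0.75), Fas (−0.67), Mdm2 (−0.64), Phlda3 (−0.53) and Gadd45g (−0.52). Between the co-injection mean and the homologous array 0 of 34 genes passed 2-fold (0.858% of all probe sets and 0.629% of the brighter genes), and the differences of all 34 lay between −0.32 in Polk and 0.44 in Plk2. The comparisons with the heterologous array share that single array.

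A limma fit to all 35556 probe sets, which rests on 1 residual degree of freedom from the co-injection pair, called 0 probe sets at a Benjamini-Hochberg adjusted p under 0.05 in each of the 6 comparisons. Its lowest adjusted p among the 34 genes was 0.109 in the heterologous array against parental ESCs and 0.146 in co-injection against heterologous. At an unadjusted p under 0.05 limma had 19 of the 34 genes in the heterologous array against parental ESCs (26.8% of all probe sets), 16 in co-injection (23.6%) and 18 in the homologous array (23.5%). It had 21 in heterologous against homologous (20.6%), 22 in co-injection against heterologous (26.7%) and 9 in co-injection against homologous (15%). These p-values rest on the spread of the co-injection pair alone, which may be technical, and do not measure spread between teratomas or conditions. All of the 34 genes but Fas are brighter genes, for which shares at an unadjusted p were not computed. The counts at an unadjusted p therefore have no like share beside them. The lack of calls does not show that genes were unchanged.

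Other genes of the pathway were taken from lists that did not include the 34. Of 25 measured other targets of p53, 2 were higher and 2 lower by over 2-fold in the heterologous array than in parental ESCs (16% together, beside 4.85% of all probe sets and 7.7% of the brighter genes), and 0 passed in the co-injection mean or the homologous array, with medians of 0.17, 0.14 and 0.14 in the co-injection, heterologous and homologous arrays. The higher ones were Tnfrsf23, a mouse decoy receptor for TRAIL, with 7.28 and 7.38 in the co-injection arrays, 10.35 in the heterologous array, 8.21 in the homologous array and 7.47 in parental ESCs, and Cd80, a ligand of T cell costimulation, with a difference of 1.61. The lower ones were Trim25, a ubiquitin ligase of antiviral signalling, at −1.25, and Steap3, an iron reductase, at −1.03. In the homologous array Steap3 was lower by just short of 2-fold. Against the heterologous array, the co-injection mean was lower by over 2-fold in Tnfrsf23 (−3.02 ± 0.07), Cd80 (−2.23 ± 0.074) and Ak1, an adenylate kinase gene (−1.20 ± 0.022), and higher by over 2-fold in Sfn, the gene of 14-3-3 sigma (1.67 ± 0.23, SD, n = 2). Between the heterologous and the homologous array Tnfrsf23 differed by 2.14, Cd80 by 1.71 and Sfn by −1.17.

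The 25 genes of the p53 family, its kinases and its modifiers, among them Atm, Atr, Chek1, Chek2 and Ep300, had 0 members past 2-fold in the 6 comparisons. In these comparisons 0.858% to 4.85% of all probe sets, and 0.629% to 7.7% of the brighter genes, passed 2-fold. The highest of them in the heterologous array was Trp53bp1, a factor of double-strand break repair, which differed from parental ESCs by 0.74 ± 0.034 in the co-injection arrays (SD, n = 2), 0.71 in the heterologous array and 0.85 in the homologous array, and the lowest was Sirt1, a deacetylase, at −0.52. Trp63 and Trp73, the relatives of p53, differed from parental ESCs by −0.087 and 0.023 in the heterologous array.

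Of 12 other BCL2 family genes, 1 passed 2-fold, in homologous against parental ESCs and in heterologous against homologous. In each comparison that is 8.33% of the list, beside 2.96% and 2.64% of all probe sets and 4.16% and 3.91% of the brighter genes. The gene was Bnip3, a hypoxia-responsive mitochondrial protein gene, with 10.91 and 10.95 in the co-injection arrays, 10.11 in the heterologous array, 11.84 in the homologous array and 10.43 in parental ESCs. It was highest in the homologous array, 1.41 above parental ESCs, and the difference of the heterologous from the homologous array was −1.73, with −1.78 in its other probe set. Of 29 other genes of caspases and death receptor signalling, 2 were higher by over 2-fold in the co-injection mean, 4 in the heterologous array and 3 in the homologous array, and 0 were lower by as much. These are 6.9%, 13.8% and 10.3% of the list, beside 2.08%, 4.85% and 2.96% of all probe sets past 2-fold in either direction. Casp12, an inflammatory caspase, was higher by 2.68 in the heterologous array, but with 4.33 and 4.58 in the co-injection arrays, 6.87 in the heterologous array, 5.28 in the homologous array and 4.20 in parental ESCs it was dim in each. Tnfrsf1a, the receptor of tumor necrosis factor, was at 1.16 in the heterologous array, against −0.29 ± 0.064 for the co-injection arrays (SD, n = 2). The homologous array had the same deposited value as parental ESCs. Mlkl, the executor of necroptosis, was higher in each ESC-like array by nearly the same amount, 1.33 ± 0.03 in the co-injection arrays (SD, n = 2), 1.35 in the heterologous array and 1.35 in the homologous array. Its value was 7.55 and 7.59 in the co-injection arrays, 7.59 in the heterologous array, 7.59 in the homologous array and 6.24 in parental ESCs. The deposited values of co-injection batch 2, the heterologous array and the homologous array were identical. It lies on chromosome 8, whose 653 brighter genes had median differences of 0.23, 0.041 and 0.26 in the co-injection mean, the heterologous array and the homologous array. Cflar, which encodes the caspase-8 inhibitor c-FLIP, was at 1.67 in the heterologous array by its brightest probe set, but its other probe sets gave 1.01 and 0.33, so its size is uncertain. The means of Mlkl and Cflar over the 5 arrays, like that of Casp12, lay below the median of all values, so these differences too rest on dim signal.

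**Figure D4:**
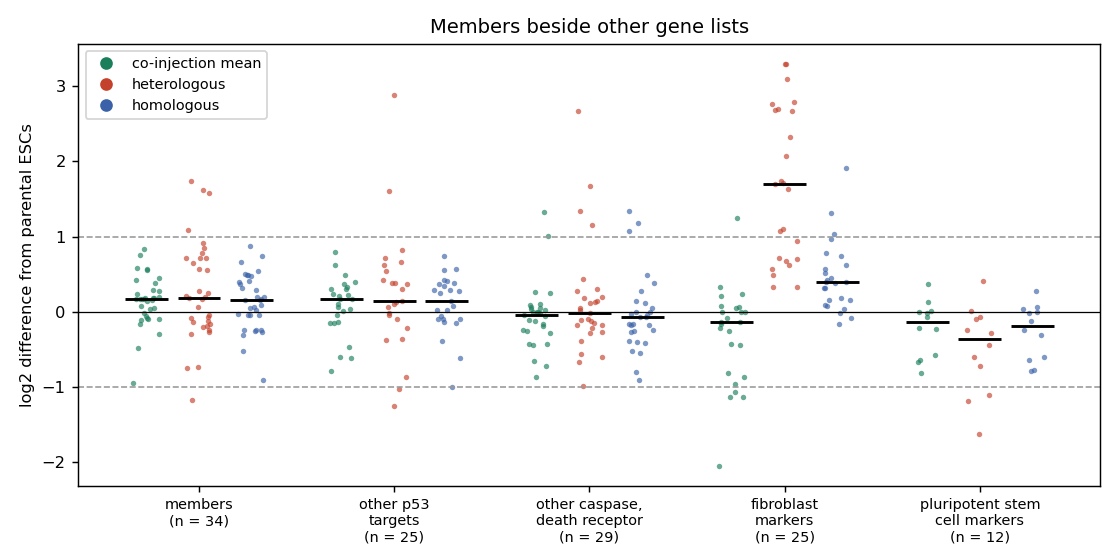
Differences from parental ESCs (log2, vertical axis) of the 34 genes and of other gene lists (horizontal axis), with a point for each gene, the list median as a line and dashed lines at 2-fold. Medians of the 34 genes lie between 0.16 and 0.19 in the co-injection mean, the heterologous array and the homologous array, and the fibroblast markers reach a median of 1.70 in the heterologous array.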

How the data were processed

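Total RNA of each cell population, and of each co-injection batch, was measured on 1 Affymetrix Mouse Gene 1.0 ST array. The authors extracted probe intensities with GCOS, processed them with RMA, applied quantile normalization and deposited log2 expression values; no version or genome build is named in the sources used here. RMA tends to compress differences of dim probe sets, and quantile normalization removes any shift of a whole array. Groups were taken from the sample labels. Probe sets were named by the platform annotation: 21789 carry 1 symbol, 1621 several and 12146 none. Differences of log2 values were computed without further normalization, and the 2-fold rule of the methods was applied. The members and all gene lists were chosen with earlier results of these data known. Values in every array were given for members past 2-fold in any comparison and for Mdm2, Bbc3, Pmaip1, Bcl2, Bcl2l1 and Mcl1, and for others whose order of arrays is described, which were chosen after their values were seen. Of the other lists, genes past 2-fold were named, or else the highest and the lowest in the heterologous array. Genes whose mean was above the median of all values, 7.49, were called brighter (11600 genes). Alternatives were thresholds of 1.5-fold and 3-fold, cyclic loess, the mean over probe sets, a filter on dim genes, subtraction of chromosome medians, leaving out each co-injection array, and limma 3.58.1 (eBayes). The limma code was tried on simulated data, in which every array had the spread of the co-injection pair. Added spread between teratomas or cultures was not simulated, so this trial cannot show how well the fit serves the real arrays. Background correction and slide were not varied because scanner files were not used here. Chromosomes came from RefSeq (GRCm38.p6). Python 3.11.15, pandas 2.3.3 and R 4.3.3 were used.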

Additional observations from a re-analysis of the deposited data

Results flagged for a closer look

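Some genes outside the 34 lay on opposite sides of parental ESCs in the heterologous array and in the other 3 ESC-like arrays, at least 2-fold apart. The difference between the arrays was not tested. Sfn (14-3-3 sigma) read 10.99 and 10.67 in the co-injection arrays, 9.16 in the heterologous array, 10.33 in the homologous array and 10.03 in parental ESCs, with a difference from parental ESCs of −0.87 in the heterologous array against 0.80 ± 0.23 (SD, n = 2) and 0.30 in the co-injection and homologous arrays. Epithelial markers had their highest median difference, 0.61, in the co-injection mean, against −0.25 in the heterologous array, and their part was not tested. Cd80 read 8.39 and 8.29 in the co-injection arrays, 10.57 in the heterologous array, 8.86 in the homologous array and 8.96 in parental ESCs, a difference of 1.61 in the heterologous array against −0.62 ± 0.074 (SD, n = 2) and −0.10 in the co-injection and homologous arrays. The other probe set of Cd80 gave 0.99 in the heterologous array. None of the 34 genes met this criterion.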

How the results depend on the processing

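The number of genes past the threshold followed the threshold. Shares over all probe sets were computed at 2-fold only. The counts at 1.5-fold and 3-fold therefore cannot be set against all probe sets. At 1.5-fold it was 4 for homologous, 14 for heterologous and 3 for co-injection against parental ESCs, 10 for heterologous against homologous, 9 for co-injection against heterologous and 0 for co-injection against homologous. At 3-fold it was 2 for heterologous against parental ESCs (Casp8 and Bcl2, with Plk2 just short of it), 1 for heterologous against homologous and 1 for co-injection against heterologous (Casp8 in both), and 0 in the others. By limma's adjusted p it was 0 in each comparison, with 9 to 22 genes at an unadjusted p under 0.05. Under cyclic loess heterologous against homologous had 3 genes past 2-fold, against 2. All other counts were the same numbers under cyclic loess, with dim genes left out, after subtraction of chromosome medians and without batch 1 or batch 2. The largest move of a difference was 0.13 under cyclic loess, 0.50 after subtraction of chromosome medians and 0.095 without batch 1 or batch 2. Differences past 2-fold therefore could not change sign under these settings. Smaller differences did change sign, such as that of Casp8 in the co-injection mean. It was −0.016 after subtraction of the chromosome median and −0.026 without batch 2, against 0.041. The median of the heterologous array was 0.24 under cyclic loess and 0.24 after subtraction of chromosome medians, against 0.19, and that of the co-injection arrays was 0.14 without batch 1 and 0.20 without batch 2. Each gene has 1 probe set, so averaging probe sets altered nothing. No paired analysis was possible because only co-injection has replicate numbers, and each other condition has 1 array. The single arrays, and the dim signal of Fas, Casp12, Mlkl and Cflar, limit the precision.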
